A study of Gallus gallus with 6 samples.

Results

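Dietary sugar is taken up in the small intestine by a short chain of proteins on the absorptive cells of the villus, the enterocytes. Disaccharidases anchored in the brush border split starch fragments and double sugars, sodium-coupled and facilitative carriers move the freed hexoses into the cell and on towards the blood, and fructose is trapped inside by phosphorylation. The genes described here are 8 of the 10 named for this chain, found among 17623 listed genes by gene symbol. They are the disaccharidases SI and LCT, the sodium-coupled carriers SLC5A1 and SLC5A9, the facilitative carriers SLC2A5, SLC2A2 and SLC2A1, and the fructose kinase KHK. The SI row carries no symbol in the table and was matched through the gene number in its description, which names sucrase-isomaltase. MGAM (maltase-glucoamylase) and TREH (trehalase) matched no row and were not analysed here. All 8 had enough reads to enter the test.

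The libraries are from ileum, the distal small intestine, of Taiping chickens aged 2 months and labelled male. The 3 CT samples had a basal diet of corn and soybean meal. The 3 MP_FOS samples had the same basal diet, with 2 mL of probiotics and 1 mL of fructo-oligosaccharide (FOS) in each litre of drinking water. FOS are short fructose chains whose bonds the gut's own disaccharidases do not open well, so that they mostly reach gut bacteria. The labels give no organism for the probiotic and do not say whether each numbered replicate comes from its own bird. The p-values therefore rest on the spread among these samples. In each diet replicate 2 differs from replicates 1 and 3 in reads of the female-specific W chromosome, given below, so it is not a technical repeat of them. Whether replicates 1 and 3 of a diet are different birds is not given. Their counts differed with a chi-square per degree of freedom of 24.8 in CT and 69.2 in MP_FOS. Counting error alone gives values near 1, so they differ by more than repeat sequencing of 1 library. Earlier technical steps may still be part of the spread. Where 3 values are given for a diet they stand in the order of replicates 1, 2 and 3.

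Estimated counts summed to between 11833015 and 18106651 per library, and CPM below are counts scaled to library size after TMM scaling, a correction for library composition. In both diets, replicates 1 and 3 held reads from the female-specific W chromosome, although every sample is labelled male. The W-linked gene Wpkci-7 had 1846 to 2804 reads in those 4 libraries, 3 in CT replicate 2 and 0 in MP_FOS replicate 2. The diet comparison of each of the 8 genes is therefore also given without both replicates numbered 2. FABP6, the bile acid binding protein of the ileum, had 4514 to 5753 CPM in CT and 6886, 1975 and 1293 CPM in MP_FOS. SLC10A2, the ileal bile acid carrier, had 168, 202 and 172 CPM in CT and 267, 425 and 371 CPM in MP_FOS. The 9 exocrine pancreas markers together had at most 4.12 CPM in any library.

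SLC5A1 (ENSGALG00000006728) and SI (ENSGALG00000009511) stood far above the other genes of the chain when compared per transcript length, in FPKM. SLC5A1 encodes the sodium-glucose cotransporter SGLT1, which carries glucose and galactose across the brush border, and averaged 222 ± 27.6 FPKM in CT (SD, n = 3) and 350 ± 118 FPKM in MP_FOS. SI, whose protein splits sucrose and the branch points and short ends of starch, averaged 241 ± 37.4 FPKM in CT and 273 ± 182 FPKM in MP_FOS. By mean FPKM over the 6 libraries SLC5A1 was the gene at rank 241 of the table and SI the gene at rank 265. The ranges of these 2 genes overlapped, and their order changed between libraries. The ratio of SLC5A1 to SI in FPKM was 0.863, 1.00 and 0.913 in CT, and 1.43, 0.919 and 2.11 in MP_FOS.

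The carriers SLC2A5 and SLC5A9 came next in FPKM, and their ranges overlapped too. SLC2A5 (ENSGALG00000002466), the fructose carrier GLUT5, averaged 42.7 ± 14.3 FPKM in CT and 65.5 ± 26.2 FPKM in MP_FOS. SLC5A9 (ENSGALG00000010494), known from human cells as the mannose and fructose cotransporter SGLT4, averaged 35.5 ± 3.90 FPKM in CT and 44.7 ± 7.96 FPKM in MP_FOS. SLC2A1 (ENSGALG00000004889), the glucose carrier GLUT1 of most cell types, lay below all values of SLC5A9 with 11.4 to 18.7 FPKM. KHK (ENSGALG00000051301), ketohexokinase, which phosphorylates fructose, overlapped SLC2A1 with 5.50 to 13.4 FPKM.

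LCT and SLC2A2 were the least abundant in FPKM and the most variable. LCT (ENSGALG00000012260), lactase, which in mammals splits milk sugar, ranged from 0.28 FPKM in MP_FOS replicate 2 to 7.58 FPKM in CT replicate 1. SLC2A2 (ENSGALG00000009306), the GLUT2 carrier that in mammals passes glucose and fructose out of the enterocyte towards the blood, ranged from a listed value of 0 FPKM in MP_FOS replicate 1 to 6.64 FPKM in MP_FOS replicate 2. Its level of 0.50 ± 0.38 FPKM in CT placed it no higher than percentile 27.2 of all listed genes in any CT library, where SLC5A1 lay at percentile 98.1 or above.

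**Figure D1:**
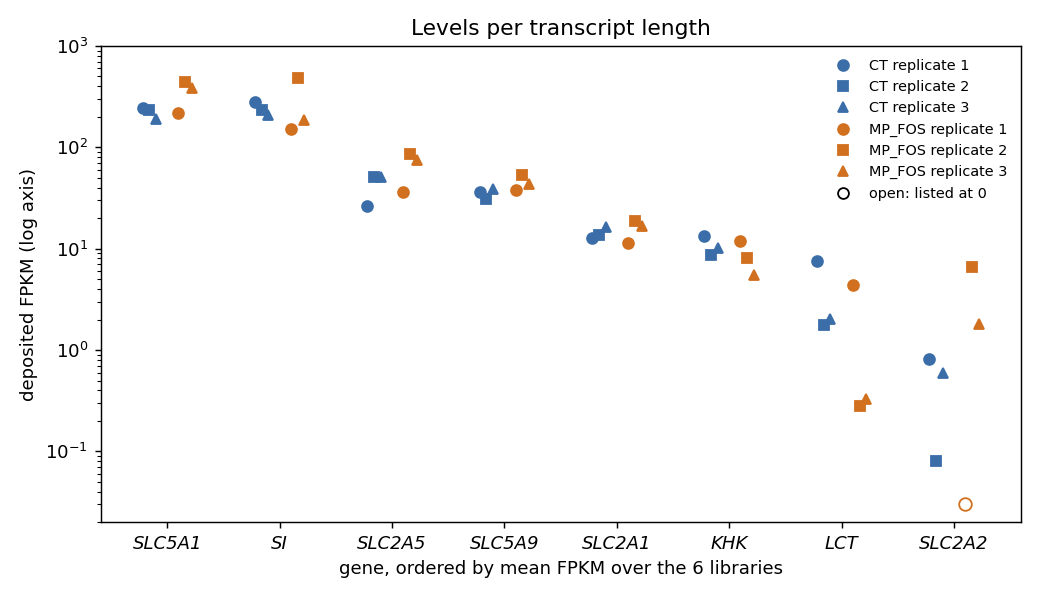
Deposited FPKM of the 8 genes in each library, on a log axis, with the genes ordered by mean FPKM over the 6 libraries; colour gives the diet and the symbol shape the replicate number. SLC5A1 and SI lie above 150 FPKM in every library, and the open symbol marks SLC2A2 in MP_FOS replicate 1, which is listed at 0.

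Between MP_FOS and CT, none of the 8 genes and 0 (0%) of all 13774 tested had an adjusted p below 0.05 in edgeR's quasi-likelihood fit (Benjamini-Hochberg, BH). At an unadjusted p under 0.05 the table held 1457 genes, 10.6% of those tested. DESeq2 called 104 genes (0.749%) and limma-voom 0 (0%), with none of the 8 among them. Without MP_FOS replicate 1 edgeR called 223 genes (1.59%), and without both replicates numbered 2 it called 1 (0.00723%), again none of the 8. Of the 8 genes, 6 had a higher and 2 a lower fitted level in MP_FOS, with a median log2 fold change of 0.33 (0.01 over all genes tested, 51.5% of them above 0). SLC5A1 and SLC5A9 had an unadjusted p under 0.05, both with a higher level in MP_FOS, as did 5.72% of all genes, and none of the 8 had a lower level at that p, against 4.86% of all genes. LCT and SLC2A2 had an absolute log2 fold change of at least 1, as had 4.01% of all genes. In CPM, the libraries of the 2 diets did not overlap in SLC5A9. Across all genes they did not in 16.7%, or 8.20% in the direction of SLC5A9 and 8.49% in the other. Counts without overlap given below are in CPM too. In the paragraphs below, log2 fold changes are MP_FOS minus CT from edgeR with their SE, and adjusted p are BH over all genes tested.

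For sucrase-isomaltase the MP_FOS libraries fell on both sides of the CT range, as they also did for SLC2A1. SI had 1397, 1193 and 1033 CPM in CT. It had 802, 2600 and 942 CPM in MP_FOS. MP_FOS replicate 2 thus stood above every CT library, while the other 2 MP_FOS libraries stood below every CT library. Its fitted log2 fold change was 0.26 ± 0.44 (edgeR adjusted p = 0.858), with a 95% interval from −0.77 to 1.29. Without MP_FOS replicate 2 it was −0.47 ± 0.18 (edgeR adjusted p = 0.606, unadjusted p = 0.0392), and without both replicates numbered 2 it was −0.47 ± 0.22 (edgeR adjusted p = 0.734).

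Lactase differed 24.7-fold between the highest and the lowest library, and 4.14-fold within CT and 15.1-fold within MP_FOS. LCT had 42.5, 10.3 and 11.4 CPM in CT. It had 26.0, 1.72 and 1.94 CPM in MP_FOS. MP_FOS replicates 2 and 3, with 29 and 23 reads, were the lowest of the 6, and MP_FOS replicate 1 lay inside the CT range. In edgeR the log2 fold change was −1.10 ± 1.07 (edgeR adjusted p = 0.728), with a 95% interval from −3.60 to 1.40. It was −0.12 without CT replicate 1, −3.55 without MP_FOS replicate 1 (edgeR adjusted p = 0.985 and 0.0923) and −0.91 without both replicates numbered 2. Without MP_FOS replicate 2 or 3 it was −0.59 and −0.62. DESeq2 gave LCT no p-value.

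The LCT values stood beside those of 2 other genes that vary along the gut, chosen after their values were seen. GATA4, a transcription factor which in mice is present in the duodenal and jejunal epithelium and lacking in the distal ileum, had 102, 5 and 5 reads in CT. It had 27, 11 and 6 reads in MP_FOS, so that the 2 libraries highest in GATA4 were also the 2 highest in LCT. The match went no further. MP_FOS replicates 2 and 3, lowest in LCT, had 0.653 and 0.506 CPM of GATA4, against 0.290 and 0.266 CPM in CT replicates 2 and 3. These values rest on 5 to 11 reads. CUBN, the ileal receptor for the vitamin B12 complex, had 466, 539 and 447 reads in CT and 328, 15 and 21 reads in MP_FOS, and was lowest in the same 2 libraries as LCT. CUBN is 1 of 6 ileal enterocyte markers, of which 4 had a higher and 2 a lower fitted level in MP_FOS. Their median log2 fold change was 0.43, and none passed edgeR. DESeq2 called 1 of the 6, against 0.749% of all genes. At an unadjusted edgeR p under 0.05, 3 were higher and 0 lower in MP_FOS, against 5.72% and 4.86% of all genes. SLC51B, part of the basolateral bile acid carrier, and AMN, the partner of cubilin, stood the other way from CUBN, with log2 fold changes of 1.24 and 0.68. The part of these differences in the LCT result was not tested.

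The brush border glucose carrier SLC5A1 had the smallest unadjusted p of the 8. SLC5A1 had 896, 886 and 701 CPM in CT. It had 853, 1775 and 1477 CPM in MP_FOS. Replicates 2 and 3 of MP_FOS stood above every CT library, and replicate 1 lay between the CT values. The log2 fold change was 0.72 ± 0.28, a 1.65-fold difference, with an unadjusted p of 0.0339 and an adjusted p of 0.465 in edgeR. Leaving out single libraries gave values from 0.49 (MP_FOS replicate 2 removed, edgeR adjusted p = 0.631) to 0.97 (MP_FOS replicate 1 removed, edgeR adjusted p = 0.0588). Without both replicates numbered 2 it was 0.55 (edgeR adjusted p = 0.738).

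In CPM, the related carrier SLC5A9 was the only one of the 8 whose libraries were all higher in MP_FOS than in CT. In FPKM its diets overlapped, as MP_FOS replicate 1 had 37.7 FPKM and CT replicate 3 had 38.9 FPKM. SLC5A9 had 76.7, 68.4 and 81.7 CPM in CT. It had 84.7, 122 and 93.9 CPM in MP_FOS. The gap between the highest CT and the lowest MP_FOS library was narrow, and MP_FOS replicate 2 stood apart from the other 2. Its fitted log2 fold change was 0.41 ± 0.17, a 1.33-fold difference (edgeR unadjusted p = 0.0428, adjusted p = 0.471). It was 0.24 without MP_FOS replicate 2 and 0.18 without both replicates numbered 2 (edgeR adjusted p = 0.648 and 0.799).

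Neither the fructose carrier nor the fructose kinase passed the test. SLC2A5 had 69.3, 140 and 135 CPM in CT. It had 102, 248 and 205 CPM in MP_FOS. Replicates 2 and 3 of MP_FOS exceeded every CT library, and MP_FOS replicate 1 lay within the CT range, as for SLC5A1. In edgeR the log2 fold change was 0.69 ± 0.38 (edgeR adjusted p = 0.545), with a 95% interval from −0.20 to 1.57, and 0.59 without both replicates numbered 2. Leaving out 1 library gave 0.42 without MP_FOS replicate 2, 0.43 without CT replicate 1 and 0.97 without MP_FOS replicate 1. KHK had 11.3, 7.59 and 8.61 CPM in CT. It had 10.8, 7.42 and 4.80 CPM in MP_FOS. The KHK groups overlapped, with a log2 fold change of −0.25 ± 0.32 (edgeR adjusted p = 0.807), a 95% interval from −1.01 to 0.51, and a value of −0.33 without both replicates numbered 2. That difference was −0.0062 without MP_FOS replicate 3, −0.07 without CT replicate 1 and −0.58 without MP_FOS replicate 1, so its size rested on single libraries. In FPKM, SLC2A5 stood at 1.96 to 5.87 times KHK in CT and at 3.00 to 13.6 times KHK in MP_FOS.

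In CPM, the order of the 6 libraries in SLC2A5 was the exact reverse of their order in LCT. In FPKM it was not exact, as CT replicate 2 lay below CT replicate 3 in both genes. These replicates had 50.8 and 51.2 FPKM of SLC2A5, and 1.76 and 2.03 FPKM of LCT. CT replicate 1 had the most LCT and the least SLC2A5, MP_FOS replicate 1 came next in both, and MP_FOS replicates 3 and 2 had the least LCT and the most SLC2A5. KHK followed the order of LCT except that MP_FOS replicates 2 and 3 changed places. These orders were seen in the values and not predicted, and all 6 libraries share the same scaling. LCT and SLC2A5 had the strongest rank correlation among all pairs of the 8 genes. The LCT values of MP_FOS replicates 2 and 3 rest on 29 and 23 reads, too few to rank them.

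The basolateral carrier SLC2A2 rested on few reads. SLC2A2 had 30, 3 and 25 reads in CT. It had 0, 269 and 49 reads in MP_FOS. MP_FOS replicate 2 stood at least 89.2-fold above MP_FOS replicate 1, where a count of 0 allows up to 3 reads or 0.179 CPM, a limit that covers counting error only. MP_FOS held the 2 highest values, and its replicate 1 cannot be ranked against CT replicate 2, which had 3 reads. The log2 fold change was 2.60 ± 1.44 (edgeR adjusted p = 0.545), with a 95% interval from −0.77 to 5.98. It was 0.86 without MP_FOS replicate 2 and 0.36 without both replicates numbered 2.

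The general glucose carrier SLC2A1 differed least between libraries. SLC2A1 had 29.8, 31.0 and 39.0 CPM in CT. It had 27.1, 45.6 and 40.9 CPM in MP_FOS. The lowest and the 2 highest values were in MP_FOS, and the highest was 1.68 times the lowest. Its fitted log2 fold change was 0.19 ± 0.22 (edgeR adjusted p = 0.776), with a 95% interval from −0.32 to 0.69, and −0.02 without both replicates numbered 2. It was 0.03 without MP_FOS replicate 2, 0.11 without CT replicate 1 and 0.37 without MP_FOS replicate 1.

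**Figure D2:**
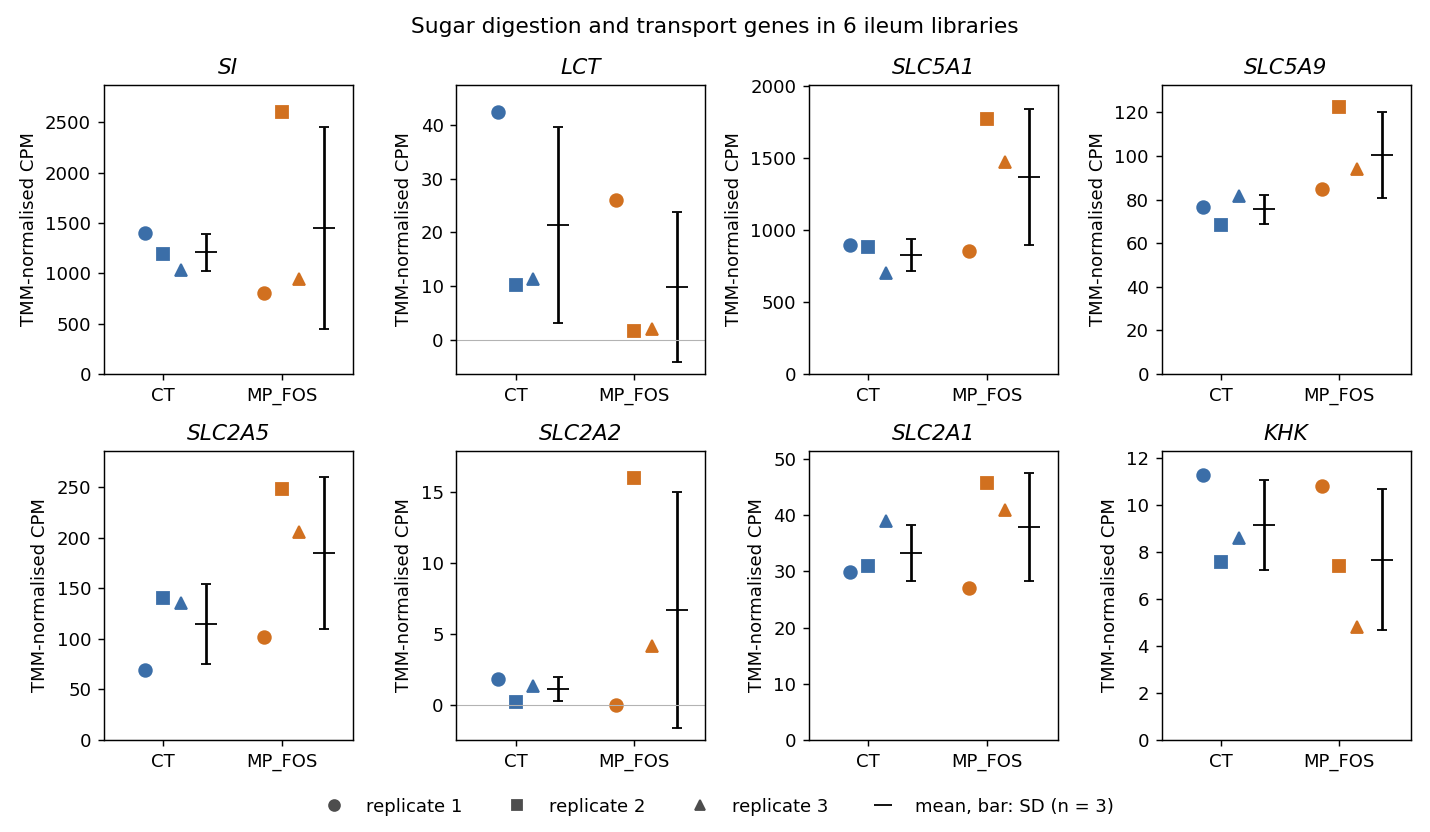
TMM-normalised CPM of the 8 genes in the 3 CT and 3 MP_FOS libraries, one panel per gene; symbols are single libraries by replicate number, and the horizontal mark with its bar is the mean and SD (n = 3). MP_FOS replicate 2 is the highest library for SI, SLC5A1, SLC5A9, SLC2A5, SLC2A2 and SLC2A1, and MP_FOS replicate 1 lies inside the CT range for LCT, SLC5A1, SLC2A5 and KHK.

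**Figure D3:**
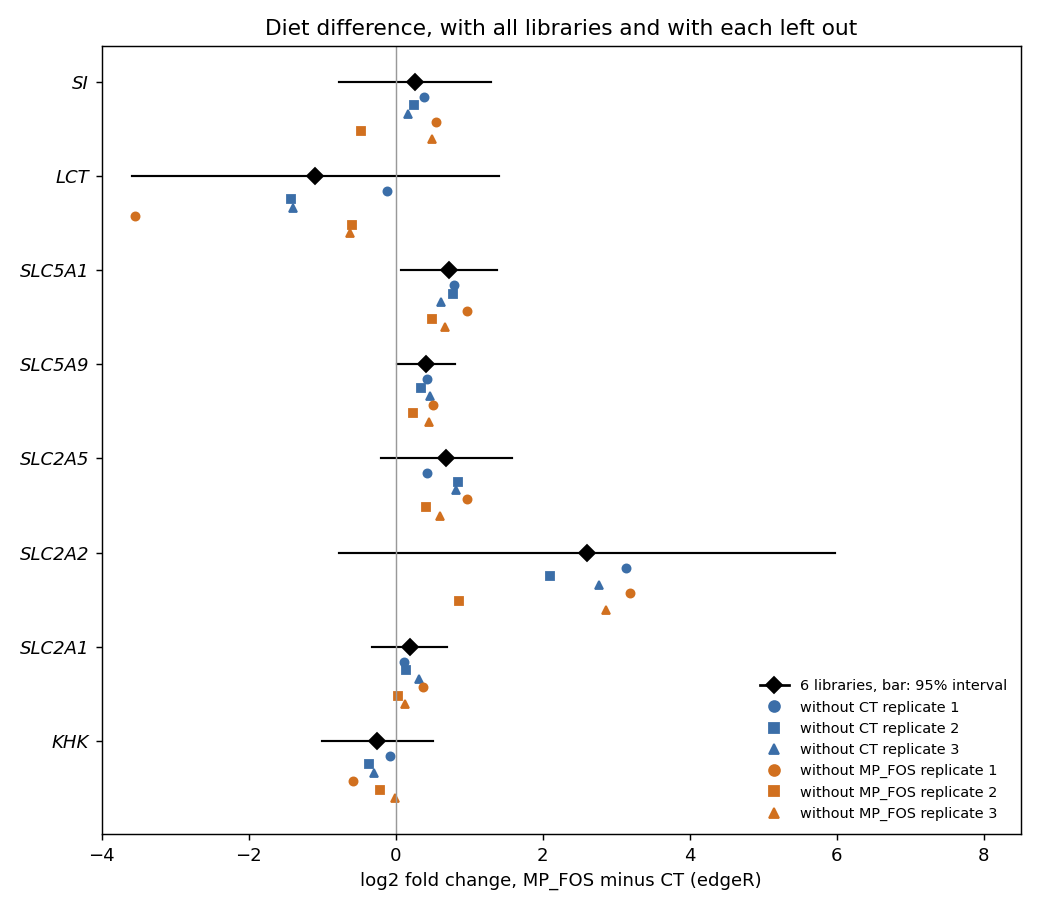
Log2 fold change of MP_FOS minus CT in edgeR for the 8 genes (diamonds) with 95% intervals, and below each the value with 1 library left out, coloured by the diet of that library. With any 1 library left out, SLC5A1, SLC5A9, SLC2A5, SLC2A2 and SLC2A1 stay above 0, SI drops to −0.47 without MP_FOS replicate 2, and LCT moves from −0.12 to −3.55.

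In bulk tissue, fewer cells of a type and less RNA per cell cannot be told apart, so the genes were also set against 23 enterocyte markers of the same library. The mean log2 level of these markers, taken against the CT mean, lay between −0.20 and 0.36 in CT and between −0.15 and 0.22 in MP_FOS. Their summed level was 21579 to 31508 CPM in CT and 20925 to 29483 CPM in MP_FOS. ANPEP, MEP1A and ENPEP, brush border peptidases, had the highest mean CPM among them, a scale that is not corrected for length. Of the 23 markers 13 had a higher and 10 a lower fitted level in MP_FOS, with a median log2 fold change of 0.12 and none that passed edgeR. Single markers moved apart under this mean, as in FABP2 and KRT20, chosen after their values were seen. FABP2 had 447 to 744 CPM in CT and 957, 243 and 249 CPM in MP_FOS. KRT20 had 601 to 919 CPM in CT and 1048, 1707 and 1301 CPM in MP_FOS.

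Relative to these markers, SLC5A1 was higher in MP_FOS by 0.69 on the log2 scale and SLC2A5 by 0.68. Leaving out 1 library gave 0.42 to 1.12 for SLC5A1 and 0.37 to 1.18 for SLC2A5. Exact permutation tests over the 6 libraries, two-sided, gave p = 0.3 for SLC5A1, for SLC2A5 and for LCT (a difference of −1.73), where 3 against 3 allows no p below 0.1. For SI the difference was 0.09 (exact p = 0.9), for SLC5A9 0.42 (exact p = 0.4) and for SLC2A2 1.27 (exact p = 0.5). SLC2A1 differed by 0.19 (exact p = 0.7) and KHK by −0.27 (exact p = 0.5). Set against only the 5 enterocyte markers of highest mean CPM, the differences were 0.95 for SLC5A1, 0.94 for SLC2A5, 0.68 for SLC5A9, 0.45 for SLC2A1 and 0.35 for SI. They were 1.54 for SLC2A2, −1.47 for LCT and −0.0040 for KHK. All shifted up by the same amount, as the mean log2 level of these 5 markers was lower in MP_FOS. Among them MEP1A averaged 3319 CPM in CT and 2059 CPM in MP_FOS, while MYO1A went the other way, with 1155 and 1386 CPM. The exact permutation p were 0.2 for SLC5A1, 0.3 for SLC2A5, SLC5A9 and LCT, 0.5 for SLC2A1 and SLC2A2, and 0.8 for SI.

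Markers of other cell types also differed between libraries, and none of them passed edgeR. Crypt and cycling markers, 8 of 9 tested, had a median of 0.58 against the CT mean in MP_FOS replicate 2, the library highest in SI, and of −0.32 in MP_FOS replicate 1, the library lowest in SI. LGR5, a stem cell marker of that list chosen after its values were seen, stood the other way in MP_FOS replicate 2. It had 35.7, 30.8 and 37.3 CPM in CT and 27.4, 15.4 and 16.7 CPM in MP_FOS (edgeR unadjusted p = 0.0103, adjusted p = 0.445). Of the 8 tested, 1 was lower and 0 higher at an unadjusted edgeR p under 0.05, against 4.86% and 5.72% of all genes. SOX9, another crypt marker, had 19.6 to 23.3 CPM in CT, and MP_FOS replicate 2 lay inside that range. The summed level of the list was 1032 to 1228 CPM in CT and 668, 1732 and 1153 CPM in MP_FOS. Of 8 endothelial markers all had a lower fitted level in MP_FOS, with medians of −0.12, −0.70 and −0.66 in its libraries and summed levels of 827 to 895 CPM in CT and 545 to 776 CPM in MP_FOS. Fibroblast markers had a median log2 fold change of −0.35 (8 of 9 lower), with 5536 to 5676 CPM in CT and 3693 to 5187 CPM in MP_FOS in sum. Of all genes tested, 51.5% had a higher fitted level. At an unadjusted edgeR p under 0.05, 4 endothelial and 3 fibroblast markers were lower and 0 were higher. Of all genes, 4.86% were lower and 5.72% higher at that p. Without overlap, 3 endothelial and 6 fibroblast markers were lower and 0 higher, against 8.49% and 8.20% of all genes. The 5 goblet cell markers with a row had medians of −0.05, 0.66 and 0.28 in MP_FOS, and summed levels of 4311 to 5627 CPM in CT and 4858 to 8713 CPM in MP_FOS. Of the 8 tested red blood cell markers 4 were higher and 4 lower, and the 9 smooth muscle and 10 enteroendocrine markers had medians of 0.02 and 0.09. The 13 lymphocyte and macrophage markers had a median of −0.08, with 4 higher and 9 lower. At an unadjusted edgeR p under 0.05, 3 of them were higher and 1 lower, against 5.72% and 4.86% of all genes. Without overlap, 2 were higher and 0 lower, against 8.20% and 8.49% of all genes. The part of any of these cell types in the results for the 8 genes was not tested.

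Past the membrane, 22 of 25 listed genes of glucose phosphorylation, glycolysis and gluconeogenesis could be tested. Of these 16 had a higher and 6 a lower fitted level in MP_FOS, none passed edgeR's adjusted threshold, and the median log2 fold change was 0.22. HK2, a hexokinase that traps glucose in the cell, had 146, 192 and 169 CPM in CT and 194, 590 and 366 CPM in MP_FOS. PFKP, a subunit of the committing kinase of glycolysis, had 164, 143 and 152 CPM in CT and 184, 459 and 273 CPM in MP_FOS. In both genes every MP_FOS library lay above every CT library in CPM, and for HK2 replicate 1 only just. In FPKM this held for PFKP only, as HK2 had 61.4 FPKM in MP_FOS replicate 1 and 62.1 FPKM in CT replicate 2. The log2 fold changes of HK2 and PFKP were 1.18 ± 0.37 and 0.99 ± 0.31 (edgeR adjusted p = 0.448 for each, unadjusted p = 0.0142 for each). Both were named for their small p, which favours such a gap. Of the 22 genes tested, 5 were without overlap higher in CPM and 1 lower, against 8.20% and 8.49% of all genes.

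LDHA, which turns pyruvate into lactate, and TPI1, a glycolytic isomerase, were the other 2 genes of that list named by the rule. LDHA had 826, 880 and 704 CPM in CT and 727, 2677 and 1761 CPM in MP_FOS, with a log2 fold change of 1.10 ± 0.42 (edgeR adjusted p = 0.465). TPI1 averaged 312 ± 38.9 against 446 ± 103 CPM, a log2 fold change of 0.51 ± 0.20 (edgeR adjusted p = 0.467). The diets did not overlap in TPI1 in CPM. In FPKM they did, with 268 FPKM in MP_FOS replicate 1 and 287 FPKM in CT replicate 1.

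The 14 genes of fructose, galactose and polyol metabolism were split, 5 higher and 9 lower, with a median log2 fold change of −0.08 and none called. GFPT1, the entry enzyme of the hexosamine pathway, averaged 375 ± 9.89 against 514 ± 167 CPM. UGP2, which makes UDP-glucose, was lower in every MP_FOS library at 243 ± 18.8 against 199 ± 15.4 CPM (log2 fold change −0.29 ± 0.13, edgeR adjusted p = 0.492). Of the 14 genes, 0 were without overlap higher and 1 lower, against 8.20% and 8.49% of all genes. SORD, sorbitol dehydrogenase, had a log2 fold change of −0.26.

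Among 12 tested genes of other sugar carriers, 7 had a higher and 5 a lower fitted level (median log2 fold change 0.17), and none passed. The 4 named by the rule were MFSD4B, SLC2A9, SLC45A4 and MFSD4A, with log2 fold changes of −0.32, 1.08, 0.19 and −0.20. SLC2A9, a urate carrier of the GLUT family, had 7.69, 4.93 and 2.76 CPM in CT and 2.45, 26.4 and 3.46 CPM in MP_FOS, a pattern carried by 1 library. Of the other glycosidases 4 could be tested, 1 higher and 3 lower. They were AMY1A (amylase, which cuts starch), GANC, GLB1 and GLB1L, with log2 fold changes of −0.03, −0.17, 0.07 and −0.30.

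Of 9 tested genes for the sodium gradient and water flow that accompany sugar uptake, 6 were higher and 3 lower, with a median log2 fold change of 0.07 and none called. ATP1B1, the beta subunit of the sodium pump that drives SLC5A1, had 876, 874 and 867 CPM in CT and 1029, 1882 and 1043 CPM in MP_FOS. Every MP_FOS library exceeded every CT library, and the log2 fold change was 0.60 ± 0.26 (edgeR adjusted p = 0.474). Of the 9 genes tested, 1 was without overlap higher and 0 lower, against 8.20% and 8.49% of all genes. ATP1B3, SLC9A3 and SLC9A2, another pump subunit and a pair of sodium-hydrogen exchangers, had log2 fold changes of −0.28, 0.38 and 0.30.

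The genes listed as regulators of sugar genes, which include a target of glucose sensing, were split, 9 higher and 12 lower of 21 tested. Their median log2 fold change was −0.11, and none was called. MLX, the partner of the glucose-sensing factor ChREBP, had 105 to 109 CPM in CT and 125 to 139 CPM in MP_FOS, without overlap (log2 fold change 0.32 ± 0.11, edgeR adjusted p = 0.464). Of the 21 genes tested, 1 was without overlap higher and 0 lower, against 8.20% and 8.49% of all genes. SGK1, a kinase that stimulates sodium-coupled carriers, averaged 135 ± 24.9 against 185 ± 36.9 CPM. ISX, an intestinal homeobox factor, averaged 275 ± 41.2 against 343 ± 44.9 CPM, and ARRDC4, a target of glucose sensing, had a log2 fold change of −0.26.

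**Figure D4:**
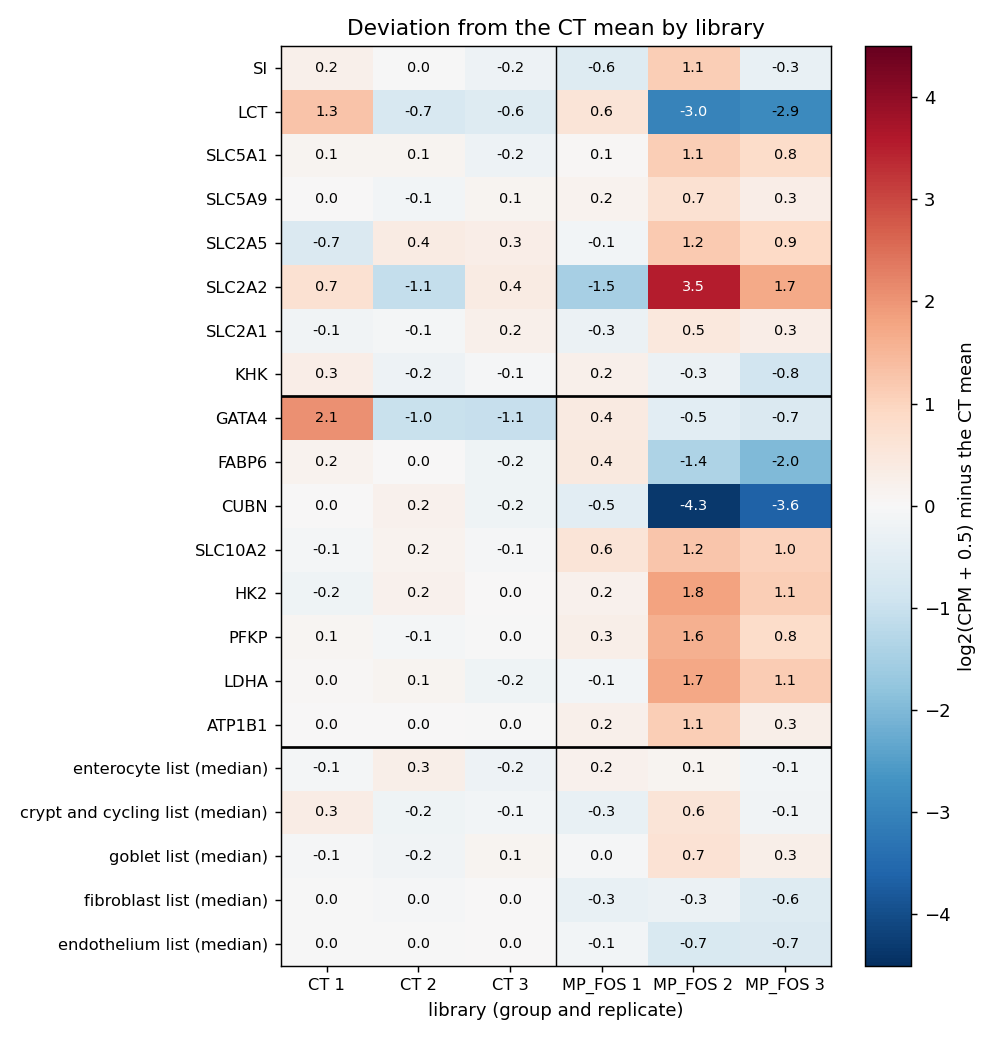
Deviation from the CT mean, in log2(CPM + 0.5), for the 8 genes (top), for 8 genes described in the text and for the medians of 5 marker lists (bottom), by library; red is higher and blue is lower. The values run from −4.33 for CUBN to 3.54 for SLC2A2, both in MP_FOS replicate 2, GATA4 in CT replicate 1 stands at 2.06, and the enterocyte list stays within 0.26 of the CT mean.

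The genes whose pattern over the 6 libraries was most like that of SLC5A1 were sought among 10128 genes with a symbol and at least 5 CPM on average, by Pearson's r of log2 CPM, as a description. They were ACTR3 (a subunit of the actin-branching complex, r = 0.997), NUB1 (0.995), GINS1 (a DNA replication factor, 0.994), PSMA6 (a proteasome subunit, 0.993) and TNFRSF10B (a death receptor, 0.993). ACTR3 had 383 to 426 CPM in CT and 412, 530 and 504 CPM in MP_FOS, a narrower range than that of SLC5A1. For SI they included WHSC1 (0.993), TBCE (a tubulin folding factor, 0.990), PAICS (a purine synthesis enzyme, 0.986) and SLC2A9 (0.984). PAICS had 37.7 to 43.1 CPM in CT and 35.0, 54.0 and 37.7 CPM in MP_FOS. All these values come from the same 6 libraries and share their depth and scaling, and no p is given. Taking the highest r among 10128 genes over only 6 libraries favours values near 1 by itself.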

How the data were processed

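The deposited gene table holds, per the file headers, estimated counts (expected counts, 7.98% of values not whole) and FPKM (scaled to transcript length and library size), both computed by the authors for 6 ileum libraries. Tools listed in the submitters' processing notes, with no order or role, are HISAT2, StringTie 1.3.1, Bowtie2, fastp 0.18.0 and DESeq2. How reads were counted, and on which genome build, is not given in the sources used here. Per the labels' protocols, TRIzol served to extract total RNA, the kit named is one for small RNA libraries, and no strand setting is named.

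The estimated counts were rounded to whole numbers, and edgeR 4.0.16 under R 4.3.3 gave the tests (filterByExpr, TMM, quasi-likelihood F test, two-sided), with BH adjustment over 13774 genes and a threshold of 0.05. Each SE was derived from the log2 fold change and the root of its F statistic, and the 95% interval uses that SE with the test's degrees of freedom. Log2 CPM used a pseudocount of 0.5. The code was tested on simulated counts. DESeq2 1.42.0 and limma 3.58.1 were alternatives, with other scalings, filters, FPKM pseudocounts of 1 and 0.1, a replicate block, a W-linked covariate and left-out libraries.

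The members and lists were chosen with earlier results of these data known. All members are named, and of each pathway list the genes that passed or else the 4 with the smallest p and at least 5 CPM in the higher group. Of marker lists the 3 most abundant genes were to be named, which is done here for enterocytes only, with list totals for the rest. For SI and SLC5A1 genes of most similar pattern are named, by rank from the first 5. A few genes that these rules would name are not reported here. One count stood for 0.0531 to 0.0843 CPM.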

Additional observations from a re-analysis of the deposited data

How the results depend on the processing

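None of the 8 genes passed an adjusted p of 0.05 in any of the 17 alternatives. The number of genes called between the diets was 0 except with DESeq2 (104) and after removing both W-lacking libraries (1), and ran from 0 to 223 with 1 library left out, the 223 arising without MP_FOS replicate 1. The cause was not tested. SI changed sign in limma-trend on log2(FPKM + 1) and log2(FPKM + 0.1) (−0.00766 and −0.00829), without both libraries that lack W-linked reads (−0.47) and without MP_FOS replicate 2, with a range of −0.47 to 0.54 over left-out libraries. SLC2A1 changed sign only without both libraries that lack W-linked reads (−0.0167). Relative to enterocyte markers, differences over left-out libraries ran from −0.49 to 0.53 for SI, turning to −0.10 without CT replicate 2 and −0.49 without MP_FOS replicate 2. For SLC2A1 they ran from −0.0402 (without CT replicate 2) to 0.53, with −0.02 without MP_FOS replicate 2. The other 6 genes kept their sign in every alternative run.

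The deviations of same-numbered CT and MP_FOS libraries from their group means correlated at 0.00, 0.22 and 0.14 across genes for replicates 1, 2 and 3. For replicates 2 and 3 this was above every differently numbered pair. CT replicate 1 was closer to MP_FOS replicate 3 (0.09), the highest of those pairs. The labels name no pairing, and the numbers were not taken as pairs in the main fit. Replicate 2 lacks W-linked reads in both diets, so for it a pairing and that difference cannot be told apart. A replicate block also leaves few degrees of freedom for the spread. With this block 0 genes were called, and the log2 fold changes were 0.06 for SI, 0.67 for SLC5A1 and 1.57 for SLC2A2. LCT stood at −1.85 ± 0.42 and SLC2A5 at 0.66 ± 0.15, with smaller SE than in the main fit. Their edgeR unadjusted p were 0.0045 and 0.0050 (edgeR adjusted p = 0.570 for each). SLC5A1 and SLC5A9 went the other way, to edgeR unadjusted p of 0.0601 and 0.0810. SLC2A2 had 0 to 3 reads in 2 libraries, where depth allows no ranking.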

Other observations

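A few rows of related genes held values outside the comparisons above. A second row described as an intestinal-like sucrase-isomaltase (ENSGALG00000043872) had at most 2 reads in any library, against 11181 to 43772 for SI. A row described as like SLC2A4 (ENSGALG00000049504) had 4.26, 2.72 and 3.61 CPM in CT and 4.78, 2.14 and 2.28 CPM in MP_FOS. Its log2 fold change was −0.20 ± 0.39 (edgeR adjusted p = 0.879).

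PCK1, the enzyme that commits carbon to glucose synthesis, stood apart in 1 library. It had 463, 813 and 546 CPM in CT and 630, 38.2 and 482 CPM in MP_FOS. HKDC1, a hexokinase of the gut epithelium, had 215 to 248 CPM in CT and 248, 256 and 101 CPM in MP_FOS. SLC5A11, an inositol carrier related to SLC5A1, had 85.6, 157 and 138 CPM in CT and 206, 152 and 81.8 CPM in MP_FOS, so that MP_FOS held both its highest and its lowest library. None of these 3 genes passed edgeR (adjusted p from 0.792 to 0.858, BH). All were chosen after their values were seen.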
